A study of Mus musculus with 2 samples.

Results

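The lung cells were labelled through a tamoxifen-activated Cre made from the leptin receptor gene Lepr and sorted against leukocytes, epithelial cells and endothelial cells. Among them, the cells described here carried at least 1 transcript of at least 3 of 6 genes used as marks of pericytes. These genes were Higd1b, Cox4i2, Kcnj8, Ndufa4l2, Trpc6 and Abcc9. The cells described also carried no transcript of Pecam1, Epcam, Mki67 or Top2a. They numbered 461 of 18351 filtered cells, 340 of 10001 from bleomycin-treated mice and 121 of 8350 from saline-treated mice. The cells were chosen by their UMIs of these 10 genes, so the levels of these genes below describe the choice and are no finding. By genes outside the choice the name pericyte did not hold for all of them. Other pericyte genes were highest in the cells with both Higd1b and Cox4i2 (48 bleomycin and 13 saline cells), while the most frequent combination, Kcnj8 with Ndufa4l2 and Abcc9 alone (130 bleomycin and 78 saline cells), carried genes of adventitial fibroblasts such as Pi16 and Dcn, and the remaining cells were divided. The cells are therefore called by their genes.

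Both libraries came from Lepr-CreERT2;Rosa26-tdTomato mice of 8 to 10 weeks, in which a tamoxifen-activated Cre recombinase made from the Lepr gene switches on the red protein tdTomato for good. One library was made from mice given bleomycin, an agent that injures the lung and leads to fibrosis, and 1 from mice given saline. Live tdTomato-positive lung cells without CD45, EpCAM or CD31 on their surface were sorted, a gate against leukocytes, epithelial cells and endothelial cells, and single-cell libraries were made by the 10x 3′ V3 method, which counts transcripts by unique molecular identifiers (UMIs). The sources used here state neither dose, days after treatment and tamoxifen timing nor how many mice went into each library. Only cells that had expressed Lepr-CreERT2 can be in the data, so the pericytes of the whole lung are not sampled. With 1 library per treatment no difference between treatments has a replicate check, no test was made, and every interval covers counting error only.

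The bleomycin library held 10138 barcodes with 134732429 UMIs, and the saline library 8396 barcodes with 60937359 UMIs. Cells with at least 500 genes and at most 10% mitochondrial UMIs were kept. The bleomycin cells were deeper, with a median of 11904.5 UMIs against 8024 UMIs in saline among the cells of the rule, and 11986 UMIs in bleomycin against 6724.5 UMIs in saline among the other cells. The libraries shared 25 barcodes, of which 0 were cells of the rule in either library. Within the cells of the rule, endothelial genes summed to 18.5 CPM in bleomycin and 6.60 CPM in saline, leukocyte genes to 20.1 CPM in bleomycin and 14.1 CPM in saline and epithelial genes to 12.4 CPM in bleomycin and 27.3 CPM in saline, where CPM is UMIs per 1000000 UMIs of the cells summed. In cells with at least 3 epithelial genes the epithelial sum was 36615 CPM in bleomycin and 22772 CPM in saline.

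Pericytes are mural cells that sit in the basement membrane of capillaries, next to the endothelium, and hold on to it through signals such as platelet-derived growth factor received by the receptor Pdgfrb and Notch signals received by Notch3. They share actin-based contraction with the smooth muscle of larger vessels, and in the lung their gene programme is close to that of vascular smooth muscle and apart from that of the Pdgfra-expressing fibroblasts of the alveolus and of the Pi16-expressing fibroblasts of the adventitia, the sheath around vessels and airways. Kcnj8 encodes the pore Kir6.1 and Abcc9 the regulatory subunit SUR2 of an ATP-sensitive potassium channel that sets vascular tone. Trpc6 is a calcium-permeable cation channel. Cox4i2, Ndufa4l2 and Higd1b are close relatives of the widely expressed mitochondrial genes Cox4i1, Ndufa4 and Higd1a, and the first of these encodes an alternative subunit of cytochrome c oxidase.

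The channel genes lie side by side, Kcnj8 (ENSMUSG00000030247) at chr6:142564837-142571614 and Abcc9 (ENSMUSG00000030249) at chr6:142587862-142702315, both on the minus strand of mm10 in GENCODE M21, with 16247 bases and 0 annotated genes wholly between them. Higd1b (ENSMUSG00000020928) is at chr11:102835849-102838040, Cox4i2 (ENSMUSG00000009876) at chr2:152754173-152765037, Ndufa4l2 (ENSMUSG00000040280) at chr10:127514967-127517154 and Trpc6 (ENSMUSG00000031997) at chr9:8544142-8680741, all on the plus strand. The promoters of this neighbouring pair are printed here. Both genes were found in 246 of 340 bleomycin and 92 of 121 saline cells of the rule, counts that describe the choice, since the rule used both genes. Over all filtered cells thinned to 2000 UMIs both were found in 118 of 9801 bleomycin (1.20%) and 130 of 8193 saline cells (1.59%). Each runs 5′ to 3′ from 250 bases before to 50 bases after the start, from RefSeq on GRCm38.p6, minus strand, at chr6:142571565-142571864 for Kcnj8 and chr6:142702225-142702524 for Abcc9, with a match to the MEF2 motif in capitals. MEF2 and CArG, the motif of serum response factor, were searched by name on both strands, overlaps included, and promoters were found for 3 of the 6 genes.
Kcnj8: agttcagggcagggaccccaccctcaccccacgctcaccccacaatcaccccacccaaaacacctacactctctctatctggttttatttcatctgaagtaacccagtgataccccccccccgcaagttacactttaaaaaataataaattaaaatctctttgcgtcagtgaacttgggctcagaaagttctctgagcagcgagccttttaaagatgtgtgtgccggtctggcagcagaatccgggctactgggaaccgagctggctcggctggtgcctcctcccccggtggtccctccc
Abcc9: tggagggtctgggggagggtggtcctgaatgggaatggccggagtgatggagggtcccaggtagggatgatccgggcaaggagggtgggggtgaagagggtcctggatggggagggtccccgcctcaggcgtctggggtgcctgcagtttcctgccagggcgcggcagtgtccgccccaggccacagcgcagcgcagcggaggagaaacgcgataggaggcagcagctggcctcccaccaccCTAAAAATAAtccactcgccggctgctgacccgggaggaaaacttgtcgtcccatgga
The Abcc9 window held 1 MEF2 match and 0 CArG matches, the Kcnj8 window 0 of either, and the Trpc6 window 1 CArG match and 0 MEF2 matches. Of 32851 mouse promoters of this length, 3.19% held a MEF2 match and 1.63% a CArG match. A match describes these letters and is no evidence of binding.

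The cells of the rule made up 3.40% of filtered cells in bleomycin (95% Clopper-Pearson interval 3.05 to 3.77%) and 1.45% in saline (1.20 to 1.73%). When each cell was thinned to 2000 UMIs, 27 of 9801 bleomycin cells (0.275%, 0.182 to 0.401%) and 14 of 8193 saline cells (0.171%, 0.0935 to 0.287%) met it, and these intervals overlap. The thinning left out 200 shallower bleomycin and 157 shallower saline cells. Thus the share was larger in bleomycin at full depth, where its cells were also deeper, and at equal depth the difference was within counting error. A transcript of both Higd1b and Cox4i2 was in 22 of 9801 thinned bleomycin cells (0.224%, 0.141 to 0.340%) and 5 of 8193 thinned saline cells (0.0610%, 0.0198 to 0.142%), with intervals that overlap only at their ends.

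**Figure D1:**
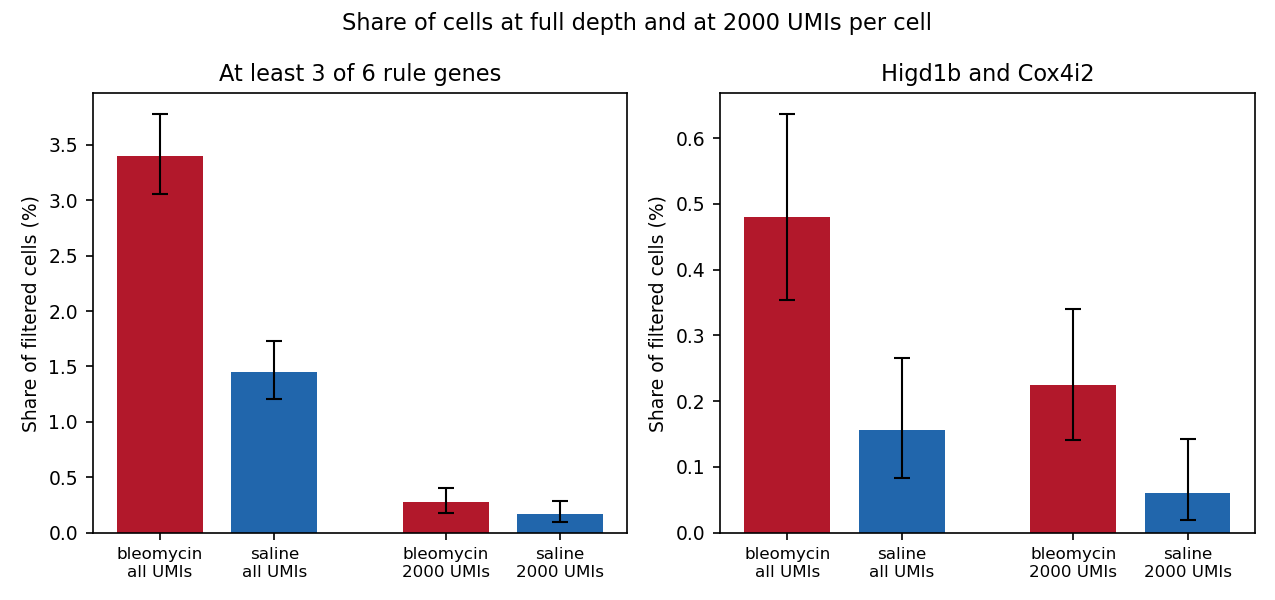
Share of filtered cells (%) with at least 3 of the 6 genes (left panel) and with Higd1b and Cox4i2 (right panel; at full depth these cells also met the rule), for the bleomycin and the saline library, with all UMIs and with 2000 UMIs per cell. Bars are shares and lines 95% Clopper-Pearson intervals; the left pair stands at 3.40% and 1.45% with all UMIs and at 0.275% and 0.171% with 2000 UMIs.

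The 6 genes were found in very unequal shares of the cells they chose. Abcc9 was found in 82.9% of bleomycin and 86.0% of saline cells, Kcnj8 in 78.5% of bleomycin and 82.6% of saline cells, and Ndufa4l2 in 72.4% of bleomycin and 88.4% of saline cells. Cox4i2 was found in 50.9% of bleomycin and 32.2% of saline cells, Trpc6 in 22.9% of bleomycin and 8.26% of saline cells, and Higd1b in 16.8% of bleomycin and 12.4% of saline cells. The channel pair was also frequent outside the rule, with Kcnj8 in 24.1% of the other bleomycin cells and 16.4% of the other saline cells, and Abcc9 in 20.8% of bleomycin and 19.8% of saline cells. Higd1b was found in 0.604% of the other bleomycin cells and 0.256% of the other saline cells, and Trpc6 in 2.55% of bleomycin and 0.0896% of saline cells. In cells with 3 or more epithelial genes, which should lack the channel, Kcnj8 was found in 3.85% of bleomycin and 2.53% of saline cells and Abcc9 in 4.62% of bleomycin and 3.80% of saline cells, at median depths of 8948 UMIs in bleomycin and 5894 UMIs in saline.

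At 2000 UMIs some of the genes were found more often in cells with a given other rule gene than in cells without it. Of the thinned cells with Higd1b, 22 of 45 in bleomycin (48.9%) and 5 of 17 in saline (29.4%) also had Cox4i2, against 1.16% of bleomycin and 0.771% of saline cells without Higd1b. Ndufa4l2 was in 27 of 45 bleomycin cells with Higd1b (60.0%) and 6 of 17 saline cells (35.3%), against 2.53% of bleomycin and 1.87% of saline cells without it. Kcnj8 differed between the libraries in this: it was in 4 of 45 bleomycin cells with Higd1b (8.89%) and 7.68% without it. In saline it was in 5 of 17 cells with Higd1b (29.4%) and 6.62% without it. Abcc9 was in 118 of 753 bleomycin cells with Kcnj8 (15.7%) and 130 of 546 saline cells with Kcnj8 (23.8%), against 6.22% of bleomycin and 7.31% of saline cells without Kcnj8. These shares are a description, since cells of a library share their depth and their free RNA.

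By combination, 38.2% of the bleomycin and 64.5% of the saline cells of the rule had Kcnj8, Ndufa4l2 and Abcc9 and no other rule gene. Cells with Higd1b and Cox4i2, whatever their other rule genes, were 48 of 340 (14.1%) in bleomycin and 13 of 121 (10.7%) in saline. All other combinations together were 162 cells (47.6%) in bleomycin and 30 cells (24.8%) in saline, among them Cox4i2 with Kcnj8 and Abcc9 in 63 bleomycin and 8 saline cells and Cox4i2 with Ndufa4l2 and Abcc9 in 20 bleomycin and 9 saline cells. These groups were chosen after their values were seen, and they are called Higd1b/Cox4i2 cells, Kcnj8/Ndufa4l2/Abcc9 cells and cells of another combination. The makeup of the rule's cells thus differed between the libraries, and every value summed over all of them mixes the groups in these unequal shares.

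**Figure D2:**
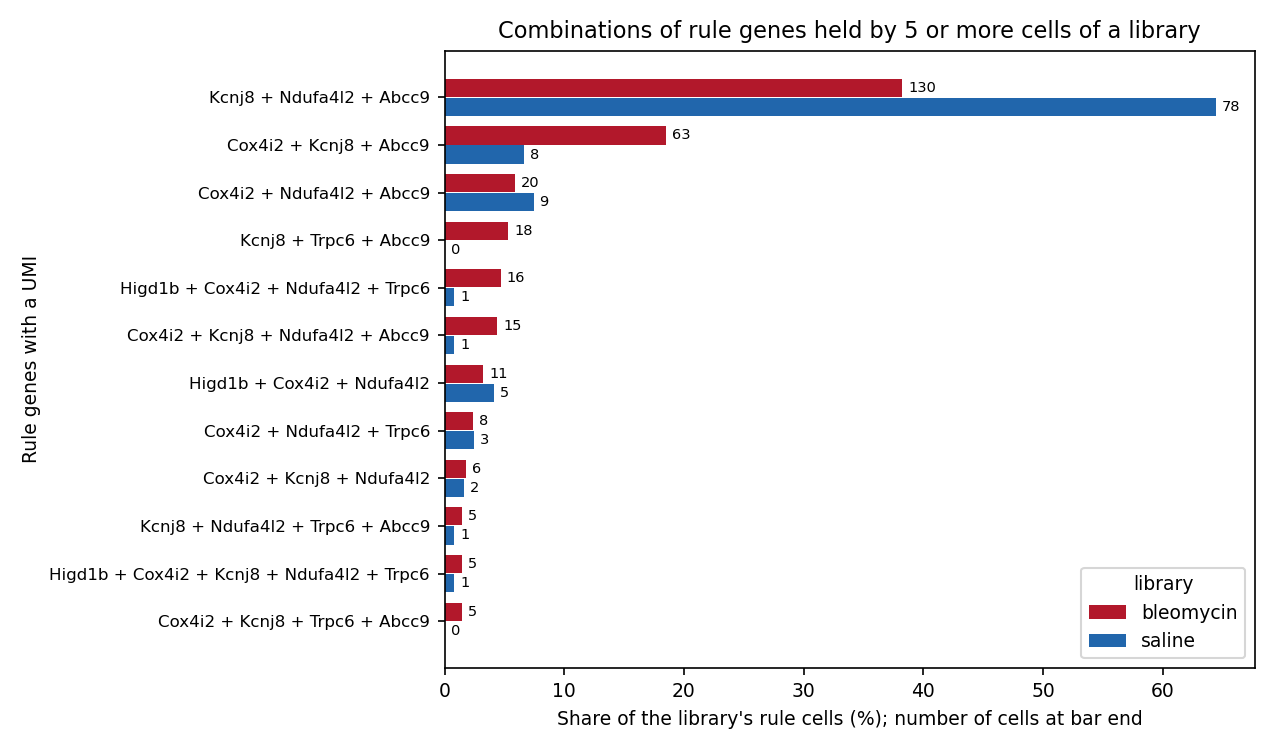
Combinations of rule genes held by 5 or more cells of a library, as a share (%) of that library's cells of the rule (340 bleomycin, 121 saline), with the number of cells at the end of each bar. Kcnj8 with Ndufa4l2 and Abcc9 leads in both libraries, and Cox4i2 with Kcnj8 and Abcc9 comes next in bleomycin.

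The threshold of 3 genes cut through a continuous distribution. Of the cells meeting the rule, 272 bleomycin and 111 saline cells had exactly 3 rule genes, and just outside it 1310 bleomycin and 817 saline cells had exactly 2. Cells with exactly 3 had a median of 4 in bleomycin and 3 in saline of 18 other pericyte genes, and cells with exactly 2 had 3 in bleomycin and 2 in saline. The cells with 4 or more rule genes, 68 in bleomycin and 10 in saline, had a median of 10 in bleomycin and 7.5 in saline. Leaving the 4 excluded genes unused would have given 378 bleomycin and 131 saline cells.

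The 18 pericyte genes that the rule did not use, among them Pdgfrb, Notch3, Mcam and Cspg4, separated the groups. Their sum was 4589.9 CPM in bleomycin and 3913 CPM in saline in Higd1b/Cox4i2 cells, 1258 CPM in bleomycin and 1836 CPM in saline in cells of another combination, and 586 CPM in bleomycin and 483 CPM in saline in Kcnj8/Ndufa4l2/Abcc9 cells. The same sum was 1278 CPM in bleomycin and 1640.0 CPM in saline in the Myh11 cells, the 720 bleomycin and 417 saline cells with 3 or more UMIs of Myh11, the smooth muscle myosin, and fewer than 3 rule genes. In the other 8941 bleomycin and 7812 saline cells it was 389 CPM in bleomycin and 366 CPM in saline. Kcnj8/Ndufa4l2/Abcc9 cells therefore stood near the other cells and Higd1b/Cox4i2 cells far above both. Counted per cell, Higd1b/Cox4i2 cells had a median of 10.5 of the 18 genes in bleomycin (lowest 7, highest 14) and 9 in saline (lowest 3, highest 12), and Kcnj8/Ndufa4l2/Abcc9 cells had 4 in bleomycin and 3 in saline. More pericyte genes than fibroblast genes were found in 43 of 48 bleomycin and 9 of 13 saline Higd1b/Cox4i2 cells, but in 4 of 130 bleomycin and 1 of 78 saline Kcnj8/Ndufa4l2/Abcc9 cells. Cells of another combination were divided, 70 of 162 in bleomycin and 15 of 30 in saline. The trait was not particular to Higd1b/Cox4i2 cells. It was in 459 of 720 bleomycin (63.8%) and 300 of 417 saline (71.9%) Myh11 cells, against 89.6% of bleomycin and 69.2% of saline Higd1b/Cox4i2 cells. The fibroblast genes came from lists of 12 alveolar and 10 adventitial genes, so the lists compared were unequal in size.

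**Figure D3:**
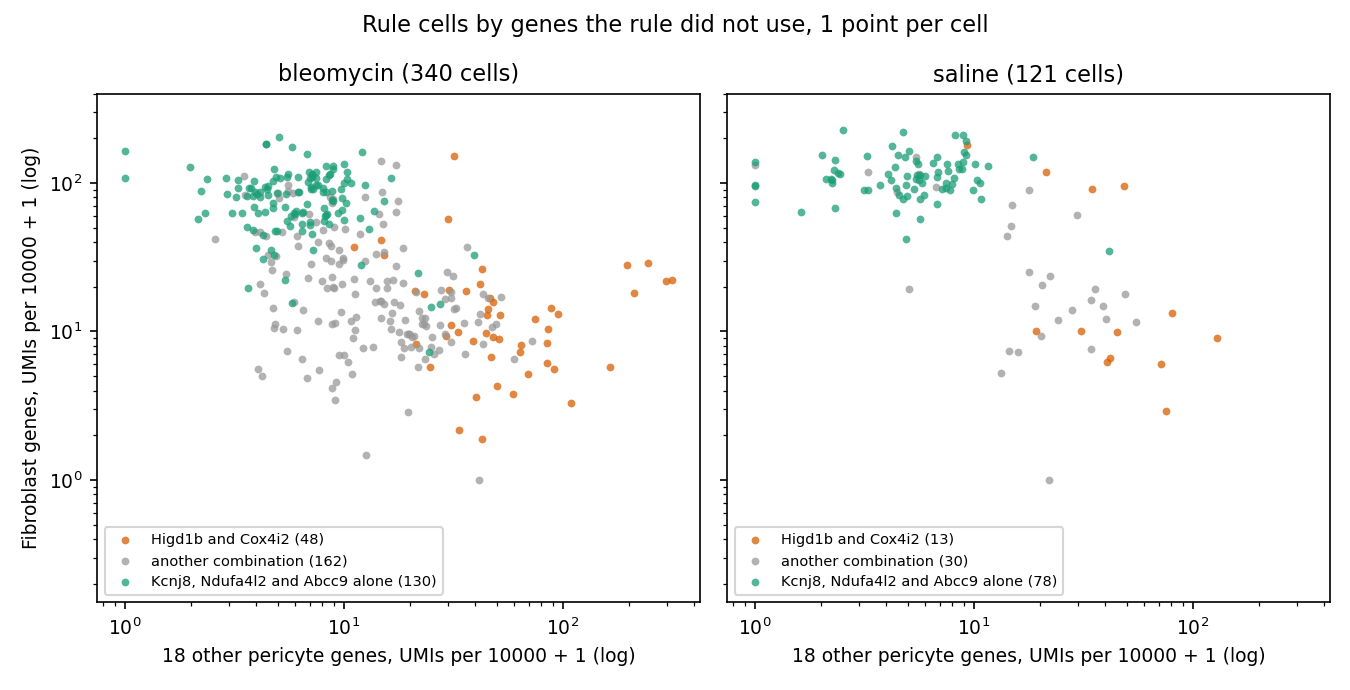
Each point is a cell of the rule, placed by its UMIs per 10000 in 18 other pericyte genes (horizontal) and in alveolar and adventitial fibroblast genes (vertical), both with 1 added on log axes, bleomycin in the left panel and saline in the right. Higd1b/Cox4i2 cells lie mostly at the lower right, at medians of 45.8 and 41.1 pericyte UMIs per 10000, and Kcnj8/Ndufa4l2/Abcc9 cells at the upper left, at medians of 5.22 and 4.50.

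Pdgfrb, the receptor through which endothelial cells recruit pericytes, had 580.3 CPM in the bleomycin library and 368 CPM in the saline library in Higd1b/Cox4i2 cells. It had 133 CPM in bleomycin and 75.1 CPM in saline in Kcnj8/Ndufa4l2/Abcc9 cells, 119.9 CPM in bleomycin and 78.2 CPM in saline in Myh11 cells and 101 CPM in bleomycin and 30.2 CPM in saline in the other cells. Notch3, the mural Notch receptor, had 511 CPM in bleomycin and 284 CPM in saline in Higd1b/Cox4i2 cells, and 20.1 CPM in bleomycin and 1.44 CPM in saline in Kcnj8/Ndufa4l2/Abcc9 cells. In the Myh11 cells Notch3 had 74.6 CPM in bleomycin and 70.2 CPM in saline. Within each library both genes were thus highest in Higd1b/Cox4i2 cells, above cells of another combination (165 CPM in bleomycin and 128 CPM in saline for Pdgfrb, and 109 CPM in bleomycin and 208 CPM in saline for Notch3), Kcnj8/Ndufa4l2/Abcc9 cells, Myh11 cells and the other cells.

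Mcam, an adhesion molecule of vessel walls (CD146), had 495 CPM in bleomycin and 421 CPM in saline in Higd1b/Cox4i2 cells, 200.1 CPM in bleomycin and 249.9 CPM in saline in Myh11 cells and 13.96 CPM in bleomycin and 2.89 CPM in saline in Kcnj8/Ndufa4l2/Abcc9 cells. Gucy1a1 and Gucy1b1 encode the subunits of soluble guanylate cyclase, the receptor of nitric oxide. Gucy1a1 had 649.9 CPM in bleomycin and 652 CPM in saline in Higd1b/Cox4i2 cells, 117 CPM in bleomycin and 228 CPM in saline in Myh11 cells and 33.5 CPM in bleomycin and 10.1 CPM in saline in Kcnj8/Ndufa4l2/Abcc9 cells. The phosphodiesterase Pde5a, which degrades the cyclic GMP they make, had 439 CPM in bleomycin and 347 CPM in saline in Higd1b/Cox4i2 cells and 46.9 CPM in bleomycin and 31.8 CPM in saline in Kcnj8/Ndufa4l2/Abcc9 cells. The transcription factor Ebf1 had 559 CPM in bleomycin and 473 CPM in saline in Higd1b/Cox4i2 cells, 77.6 CPM in bleomycin and 63.6 CPM in saline in Kcnj8/Ndufa4l2/Abcc9 cells and 9.54 CPM in bleomycin and 12.9 CPM in saline in the other cells, so that it was also above the other cells in the Kcnj8 group. Epas1, the hypoxia-inducible factor 2 alpha gene, had 391 CPM in bleomycin and 579 CPM in saline in Higd1b/Cox4i2 cells and 96.5 CPM in bleomycin and 167 CPM in saline in Myh11 cells.

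Vtn, which encodes vitronectin, ranked first among genes above the Myh11 cells in Higd1b/Cox4i2 cells. It had 81.2 CPM in bleomycin and 147 CPM in saline (42 UMIs in bleomycin, 14 in saline) in Higd1b/Cox4i2 cells, while the Myh11 cells had 0.248 CPM in bleomycin and 0 UMIs in saline. Rgs5, a regulator of G-protein signalling much used as a pericyte mark, had 83.2 CPM in bleomycin and 168 CPM in saline in Higd1b/Cox4i2 cells and 6.70 CPM in bleomycin and 60.7 CPM in saline in Myh11 cells. Gja4, the gap junction gene of connexin 37, had 168 CPM in bleomycin and 73.6 CPM in saline in Higd1b/Cox4i2 cells, 6.94 CPM in bleomycin and 2.37 CPM in saline in Myh11 cells and 3.35 CPM in bleomycin and 0 CPM in saline in Kcnj8/Ndufa4l2/Abcc9 cells. Not all 18 genes followed this order. Anpep had 0 UMIs in Higd1b/Cox4i2 cells of both libraries and 31.3 CPM in bleomycin and 43.3 CPM in saline in Kcnj8/Ndufa4l2/Abcc9 cells. The laminin chain gene Lamc3 had 17.4 CPM in bleomycin and 0 CPM in saline in Higd1b/Cox4i2 cells and 58.1 CPM in bleomycin and 133 CPM in saline in Kcnj8/Ndufa4l2/Abcc9 cells.

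At 2000 UMIs per cell, Pdgfrb was found in 34 of 47 bleomycin (72.3%) and 7 of 12 saline (58.3%) Higd1b/Cox4i2 cells. Notch3 was found in 32 of 47 bleomycin (68.1%) and 7 of 12 saline (58.3%) of the same cells, and in 6 of 130 bleomycin and 0 of 78 saline Kcnj8/Ndufa4l2/Abcc9 cells, the 0 allowing a share of up to 3.85% by a limit of 3 counts of the total. In cells with epithelial genes, which should lack both genes, Pdgfrb and Notch3 were each found in 1 of 128 bleomycin cells (0.781%) and 0 of 79 saline cells, which allows up to 3.80% by the same limit. The part of free RNA in the shares of Higd1b/Cox4i2 cells was not tested.

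Smooth muscle genes were shared between the Higd1b/Cox4i2 cells and the Myh11 cells. The smooth muscle genes, with Myh11 left out of the sum, summed to 21694 CPM in bleomycin and 17451 CPM in saline in Higd1b/Cox4i2 cells, 16460.0 CPM in bleomycin and 25904 CPM in saline in cells of another combination and 2463 CPM in bleomycin and 984 CPM in saline in Kcnj8/Ndufa4l2/Abcc9 cells. The sum was 33501 CPM in bleomycin and 48881 CPM in saline in Myh11 cells and 3158 CPM in bleomycin and 1432 CPM in saline in the other cells. Acta2, the smooth muscle actin, had 8033 CPM in bleomycin and 6027 CPM in saline in Higd1b/Cox4i2 cells and 10177 CPM in bleomycin and 18792 CPM in saline in Myh11 cells. Cnn1, the actin-binding calponin of differentiated smooth muscle, had 217 CPM in bleomycin and 147 CPM in saline in Higd1b/Cox4i2 cells and 1158 CPM in bleomycin and 1249 CPM in saline in Myh11 cells. Tnnt2, which encodes a cardiac troponin T, had 32.9 CPM in bleomycin and 10.5 CPM in saline in Higd1b/Cox4i2 cells and 422 CPM in bleomycin and 297 CPM in saline in Myh11 cells. The muscarinic receptor gene Chrm2 had 0 UMIs in Higd1b/Cox4i2 cells of both libraries and 73.8 CPM in bleomycin and 96.5 CPM in saline in Myh11 cells. Higd1b/Cox4i2 cells were themselves spread widely in this programme, between 7.74 and 515.5 smooth muscle UMIs per 10000 in bleomycin (median 176) and between 9.54 and 331 in saline (median 114). At least 3 Myh11 UMIs were in 29 of 48 bleomycin and 9 of 13 saline Higd1b/Cox4i2 cells, in 93 of 162 bleomycin and 21 of 30 saline cells of another combination, and in 6 of 130 bleomycin and 1 of 78 saline Kcnj8/Ndufa4l2/Abcc9 cells. The rule thus took in cells with clear Myh11 counts alongside cells without them.

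**Figure D4:**
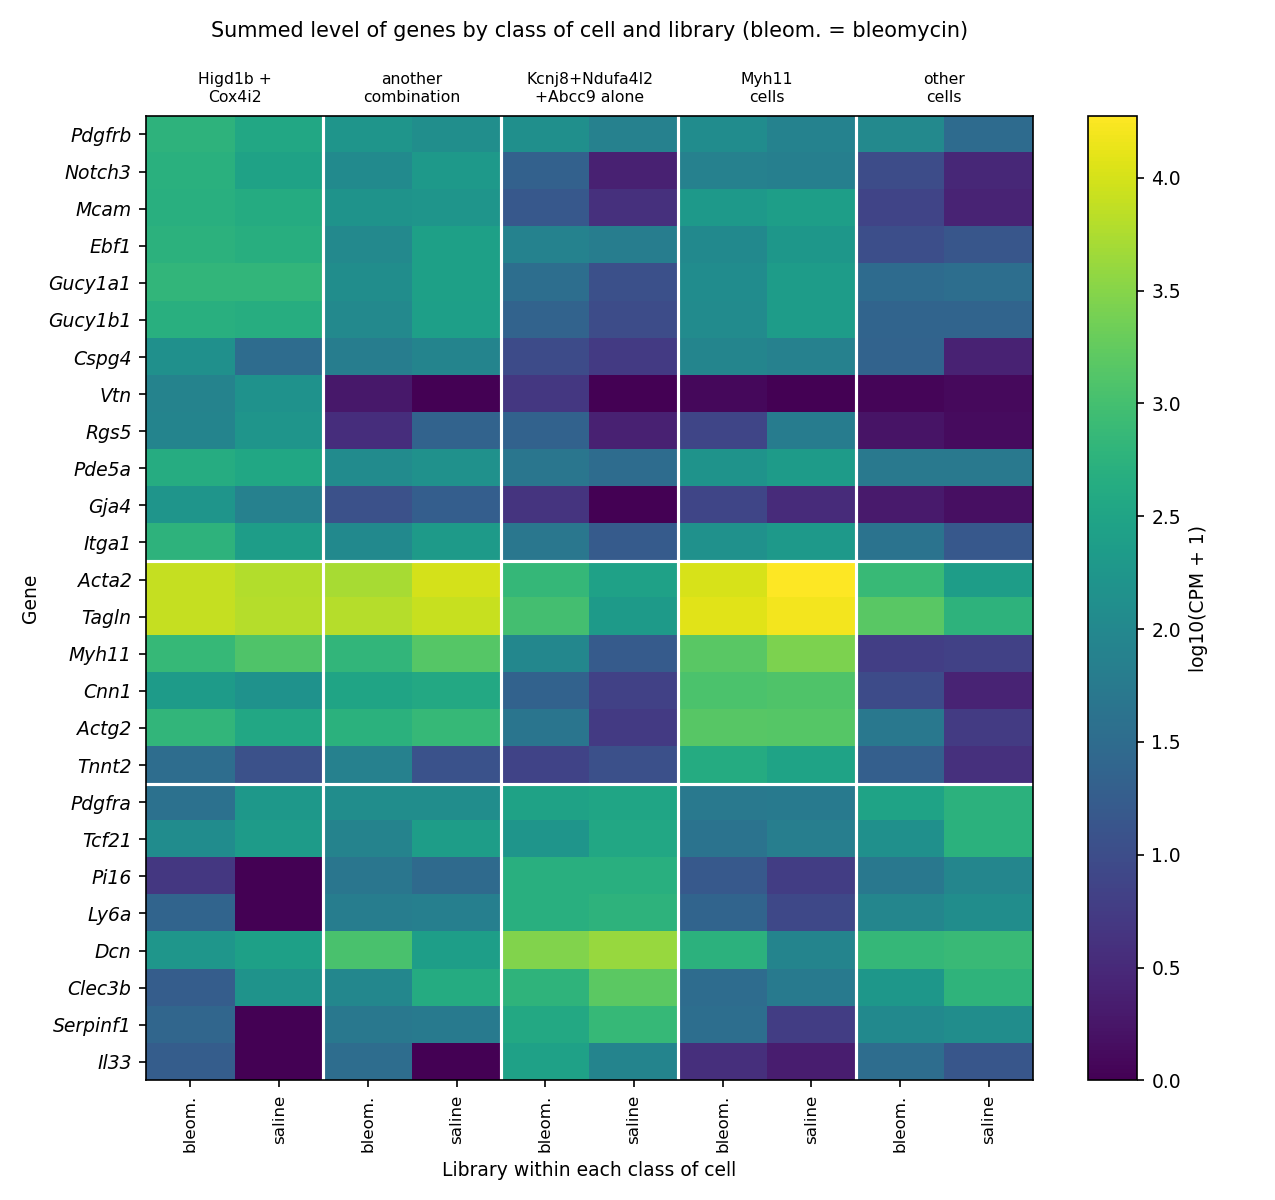
Summed level, log10(CPM + 1), of 12 vessel-wall genes (top block), 6 smooth muscle genes (middle block, with Myh11, which defined a class) and 8 fibroblast genes (bottom block) in 5 classes of cell, with bleomycin left of saline in each. Higd1b/Cox4i2 cells are bright in the top block, Myh11 cells in the middle block, and Kcnj8/Ndufa4l2/Abcc9 cells in the bottom block (Dcn 2946 and 4044 CPM). The genes were picked for display, some of them from those ranked highest in these groups, so the blocks are a description. Anpep and Lamc3, which went the other way, are not shown.

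Kcnj8/Ndufa4l2/Abcc9 cells carried genes of adventitial fibroblasts. The 10 adventitial genes summed to 4467 CPM in bleomycin and 6428 CPM in saline there, 638 CPM in bleomycin and 747 CPM in saline in Higd1b/Cox4i2 cells and 1916 CPM in bleomycin and 2183 CPM in saline in the other cells. Pi16, a peptidase inhibitor that marks adventitial fibroblasts, had 498 CPM in the bleomycin library and 488 CPM in the saline library in Kcnj8/Ndufa4l2/Abcc9 cells, against 50.9 CPM in bleomycin and 90.01 CPM in saline in the other cells. In Higd1b/Cox4i2 cells it had 2 UMIs in bleomycin and 0 in saline. At 2000 UMIs Pi16 was found in 60 of 130 bleomycin (46.2%) and 37 of 78 saline (47.4%) Kcnj8/Ndufa4l2/Abcc9 cells, and in 6.57% of bleomycin and 8.28% of saline other cells. Dcn, the collagen-binding proteoglycan decorin, had 2946 CPM in bleomycin and 4044 CPM in saline, against 690.4 CPM in bleomycin and 776 CPM in saline in the other cells. Ly6a, the stem cell antigen Sca-1, had 501 CPM in bleomycin and 588 CPM in saline in these cells, and 90.7 CPM in bleomycin and 124 CPM in saline in the other cells. The chemokine gene Ccl8 had 194 CPM in bleomycin and 241 CPM in saline in Kcnj8/Ndufa4l2/Abcc9 cells, 0 UMIs in Higd1b/Cox4i2 cells of both libraries and 16.7 CPM in bleomycin and 16.4 CPM in saline in the other cells. The genes of alveolar fibroblasts summed to 3406 CPM in bleomycin and 4772 CPM in saline in Kcnj8/Ndufa4l2/Abcc9 cells and 4232 CPM in bleomycin and 10511 CPM in saline in the other cells. In Higd1b/Cox4i2 cells the alveolar sum was 1453 CPM in bleomycin and 5375 CPM in saline. In saline it was thus above that of Kcnj8/Ndufa4l2/Abcc9 cells. In both libraries the Kcnj8/Ndufa4l2/Abcc9 cells thus had more of the adventitial genes and less of the other pericyte genes than Higd1b/Cox4i2 cells, by summed CPM. No class of Pi16-expressing fibroblasts was set apart, so nearness to such cells was not measured.

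Over all cells of the rule, a gene was called higher or lower than in another class by size alone. It had to be at least 2-fold apart in CPM in the same direction in both libraries and reach 10 CPM in the higher class in each. Neither a minimum number of cells nor a counting interval was asked for. Against the other cells 192 of 7479 genes were higher (2.57%) and 72 lower (0.963%), and against the Myh11 cells 284 of 7699 were higher (3.69%) and 208 lower (2.7%). Of the other pericyte genes 12 of 17 compared were higher than in the other cells and 0 lower, and 3 of 17 were higher than in Myh11 cells and 0 lower. Of the smooth muscle genes 9 of 10 were higher than in the other cells, and 11 of 11 were lower than in Myh11 cells. Both counts lean on how the classes were made. The Myh11 cells were chosen by Myh11 and taken out of the other cells. Yet 128 of 340 bleomycin and 31 of 121 saline cells of the rule had 3 or more Myh11 UMIs. In cells of the rule with fewer, smooth muscle genes summed to 2765 CPM in bleomycin and 1100 CPM in saline. In the other cells the sum was 3158 CPM in bleomycin and 1432 CPM in saline. Of the adventitial genes 4 of 9 were higher than in the other cells and 9 of 9 higher than in Myh11 cells. The genes farthest above the other cells were led by Actc1, a cardiac actin gene (323 CPM in bleomycin and 394 CPM in saline, against 2.40 CPM in bleomycin and 4.02 CPM in saline in the other cells), Cnn1, Mcam and Mustn1. Those farthest above the Myh11 cells were the B-cell attractant gene Cxcl13, Pi16, Ccl8 and Ly6a. Pi16, Ccl8 and Ly6a are the genes described above in Kcnj8/Ndufa4l2/Abcc9 cells, and Mcam is a gene described above in Higd1b/Cox4i2 cells.

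The mitochondrial paralogue pairs show how far the choice reached. Of the UMIs of Higd1b and Higd1a together, Higd1b took 65.2% in bleomycin and 70.6% in saline Higd1b/Cox4i2 cells, against 0.672% in bleomycin and 0.422% in saline Myh11 cells. Cox4i2 took 50% in bleomycin and 69.5% in saline of its pair with Cox4i1 in Higd1b/Cox4i2 cells, and 3.76% in bleomycin and 3.58% in saline Myh11 cells. Ndufa4l2 took 66.1% in bleomycin and 44.8% in saline of its pair with Ndufa4 in Higd1b/Cox4i2 cells, and 19.4% in bleomycin and 29.5% in saline Kcnj8/Ndufa4l2/Abcc9 cells. Since the rule asked for these genes, the shares are a description with no test.

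Bleomycin was set against saline within the cells of the rule by the ratio of bleomycin to saline CPM, which is given below with its 95% counting interval. A gene was called when it was at least 2-fold apart and that interval was clear of 1. In the higher library it also had to reach 10 CPM and be found in at least 10 cells. Of 8185 genes compared, 359 were higher (4.39%) and 433 lower (5.29%) in bleomycin, and the median log2 difference with 10 CPM added was -0.02. In Kcnj8/Ndufa4l2/Abcc9 cells 370 of 7359 genes were higher (5.03%) and 434 lower (5.9%). In Higd1b/Cox4i2 cells 181 of 3267 were higher (5.54%) and 43 lower (1.32%), where a lower call needed the gene in 10 of 13 saline cells and a higher call needed it in 10 of 48 bleomycin cells, so these counts are not comparable between directions. Of the 359 higher genes 181 were also higher in the other cells (50.4% of 359 and 37.2% of the 487 called there, 6.05% of genes), and of the 433 lower genes 219 were also lower there (50.6% of 433 and 43.3% of 506, 6.28% of genes). In the Myh11 cells 403 of 8069 genes were higher (4.99%) and 280 lower (3.47%). They shared 137 higher genes (38.2% of 359, 34.0% of 403) and 79 lower genes (18.2% of 433, 28.2% of 280) with the cells of the rule. The cells with 4 or more rule genes gave 176 higher (4.7%) and 7 lower (0.187%) of 3743, where a lower call needed the gene in all 10 saline cells and a higher call in 10 of 68 bleomycin cells. The cells of the rule with fewer than 3 Myh11 UMIs gave 424 higher (5.57%) and 484 lower (6.36%) of 7611. Of the genes called in both the cells of the rule and the other cells, 0 were called in opposite directions. However, 5 of the genes higher and 1 of the genes lower in bleomycin in the cells of the rule had the opposite call in the Myh11 cells.

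Genes of fibrotic fibroblasts were higher in bleomycin as a group. Of 11 compared, 10 were higher and 0 lower, and their median log2 difference was 1.92, against 3.17 for the same genes in the other cells and 2.37 in Myh11 cells. This count and the list counts below over all cells of the rule are read against 4.39% of genes called higher and 5.29% lower. Spp1, the secreted phosphoprotein osteopontin, had 2556 CPM in bleomycin and 0 UMIs in saline cells of the rule, at least 904-fold higher against a floor of 3 counts. It had 696 CPM in bleomycin Higd1b/Cox4i2 cells and 1684 CPM in bleomycin Kcnj8/Ndufa4l2/Abcc9 cells, with 0 UMIs in saline in both. However, Spp1 was as high as 7857 CPM in the other bleomycin cells and stood at 547 CPM in bleomycin cells with epithelial genes, and the part of free RNA in its level was not tested. At 2000 UMIs Spp1 was found in 19.2% of bleomycin cells of the rule and 14.1% of bleomycin cells with epithelial genes.

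Cthrc1, a secreted protein of collagen-producing fibroblasts in fibrosis, had 152 CPM in bleomycin and 1.88 CPM in saline (ratio 80.7, 22.2 to 667, from 697 UMIs in bleomycin and 2 in saline). In Higd1b/Cox4i2 cells it had 132 UMIs in bleomycin and 0 in saline, but the bleomycin UMIs came from 5 of 48 cells, short of the 10 needed for a call. Tnc, the matrix glycoprotein tenascin C, had 266 CPM in bleomycin and 23.6 CPM in saline (ratio 11.3, 7.60 to 17.5), and was higher in both named groups, with 232 CPM in bleomycin and 42.1 CPM in saline in Higd1b/Cox4i2 cells and 111 CPM in bleomycin and 8.67 CPM in saline in Kcnj8/Ndufa4l2/Abcc9 cells. Fst, the activin-binding follistatin, had 254 CPM in bleomycin and 30.2 CPM in saline (ratio 8.41, 5.93 to 12.4). Postn, the matrix protein periostin, had 1530.0 CPM in bleomycin and 631 CPM in saline in Higd1b/Cox4i2 cells (ratio 2.42, 1.86 to 3.21, found in 46 of 48 bleomycin and 10 of 13 saline cells) and 95.5 CPM in bleomycin and 8.67 CPM in saline in Kcnj8/Ndufa4l2/Abcc9 cells (ratio 11.0, 4.96 to 30.4). The saline Higd1b/Cox4i2 cells had more Postn than the bleomycin Kcnj8/Ndufa4l2/Abcc9 cells.

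Chl1, a neural cell adhesion gene, had 73.1 CPM in bleomycin and 0 UMIs in saline, at least 25.8-fold higher. It had 105 CPM in bleomycin Kcnj8/Ndufa4l2/Abcc9 cells, 64.1 CPM in bleomycin cells of another combination and 1 UMI in bleomycin Higd1b/Cox4i2 cells. Sfrp1, a secreted inhibitor of Wnt signalling, had 454 CPM in bleomycin and 49.0 CPM in saline (ratio 9.25, 7.03 to 12.4). Thbs2, the matrix protein thrombospondin 2, had 86.6 CPM in bleomycin and 1.88 CPM in saline (ratio 45.9, 12.6 to 381), and Pappa2, a protease of insulin-like growth factor binding proteins, 60.2 CPM in bleomycin and 0.942 CPM in saline (ratio 63.9, 11.4 to 2532). Another of the 12 highest was the predicted gene Gm8797 (119 CPM in bleomycin and 5.65 CPM in saline, ratio 21.03, 9.60 to 57.5).

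Part of the matrix genes was higher in bleomycin in each of the named groups. Of 20 interstitial matrix genes compared over all cells of the rule 10 were higher and 0 lower, and their median log2 difference was 0.94, against 1.69 in the other cells and 2.23 in Myh11 cells. In Higd1b/Cox4i2 cells 12 of the 20 listed were called higher and 0 lower, and in Kcnj8/Ndufa4l2/Abcc9 cells 10 higher and 0 lower. Of all genes compared, 5.54% were higher and 1.32% lower in Higd1b/Cox4i2 cells, and 5.03% and 5.9% in Kcnj8/Ndufa4l2/Abcc9 cells. In Higd1b/Cox4i2 cells a lower call needed the gene in 10 of 13 saline cells, which limits what the 0 can say. Col1a1, the main chain of type I collagen, had 2408 CPM in bleomycin and 579 CPM in saline in Higd1b/Cox4i2 cells (ratio 4.16, 3.18 to 5.56) and 6155 CPM in bleomycin and 2814 CPM in saline in Kcnj8/Ndufa4l2/Abcc9 cells (ratio 2.19, 2.08 to 2.30). Fn1, which encodes fibronectin, had 1518 CPM in bleomycin and 389 CPM in saline in Higd1b/Cox4i2 cells (ratio 3.90, 2.81 to 5.58) and 2213 CPM in bleomycin and 334 CPM in saline in Kcnj8/Ndufa4l2/Abcc9 cells (ratio 6.63, 5.81 to 7.61). The elastic fibre gene Eln had 3915 CPM in bleomycin and 1231 CPM in saline in Higd1b/Cox4i2 cells (ratio 3.18, 2.64 to 3.87). Col1a1, Fn1 and Eln were called higher in bleomycin in Myh11 cells and the other cells too, with Col1a1 at 2474 CPM in bleomycin and 336 CPM in saline in Myh11 cells and 3797 CPM in bleomycin and 959.7 CPM in saline in the other cells.

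Basement membrane, the sheet pericytes share with the endothelium, was the second matrix group. Over all cells of the rule 5 of 15 genes were higher and 1 lower (median log2 difference 0.25, against 0.26 in the other cells). In Higd1b/Cox4i2 cells 7 of the 16 listed were called higher, Col4a1, Col4a2, Lamb1, Nid1, Hspg2, Col18a1 and Sparc, and 0 lower. Of all genes compared there, 5.54% were higher and 1.32% lower, and a lower call needed the gene in 10 of 13 saline cells. In Kcnj8/Ndufa4l2/Abcc9 cells 3 were higher and 1 lower, against 5.03% and 5.9% of all genes. Col4a1 and Col4a2 encode the 2 chains of the main type IV collagen. Col4a1 had 1135 CPM in bleomycin and 463 CPM in saline in Higd1b/Cox4i2 cells (ratio 2.45, 1.80 to 3.41) and 589.7 CPM in bleomycin and 353 CPM in saline in Kcnj8/Ndufa4l2/Abcc9 cells (ratio 1.67, 1.45 to 1.93, below the 2-fold line). Col18a1, the source of endostatin, had 685 CPM in bleomycin and 158 CPM in saline in Higd1b/Cox4i2 cells (ratio 4.34, 2.60 to 7.84) and 92.7 CPM in bleomycin and 91.0 CPM in saline in Kcnj8/Ndufa4l2/Abcc9 cells (ratio 1.02, 0.758 to 1.38). The intervals of these Col18a1 ratios do not overlap, although no test of the difference between groups was made. Lamc3 was the gene called lower, with 33.2 CPM in bleomycin and 95.2 CPM in saline over all cells of the rule (ratio 0.348, 0.269 to 0.453).

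**Figure D5:**
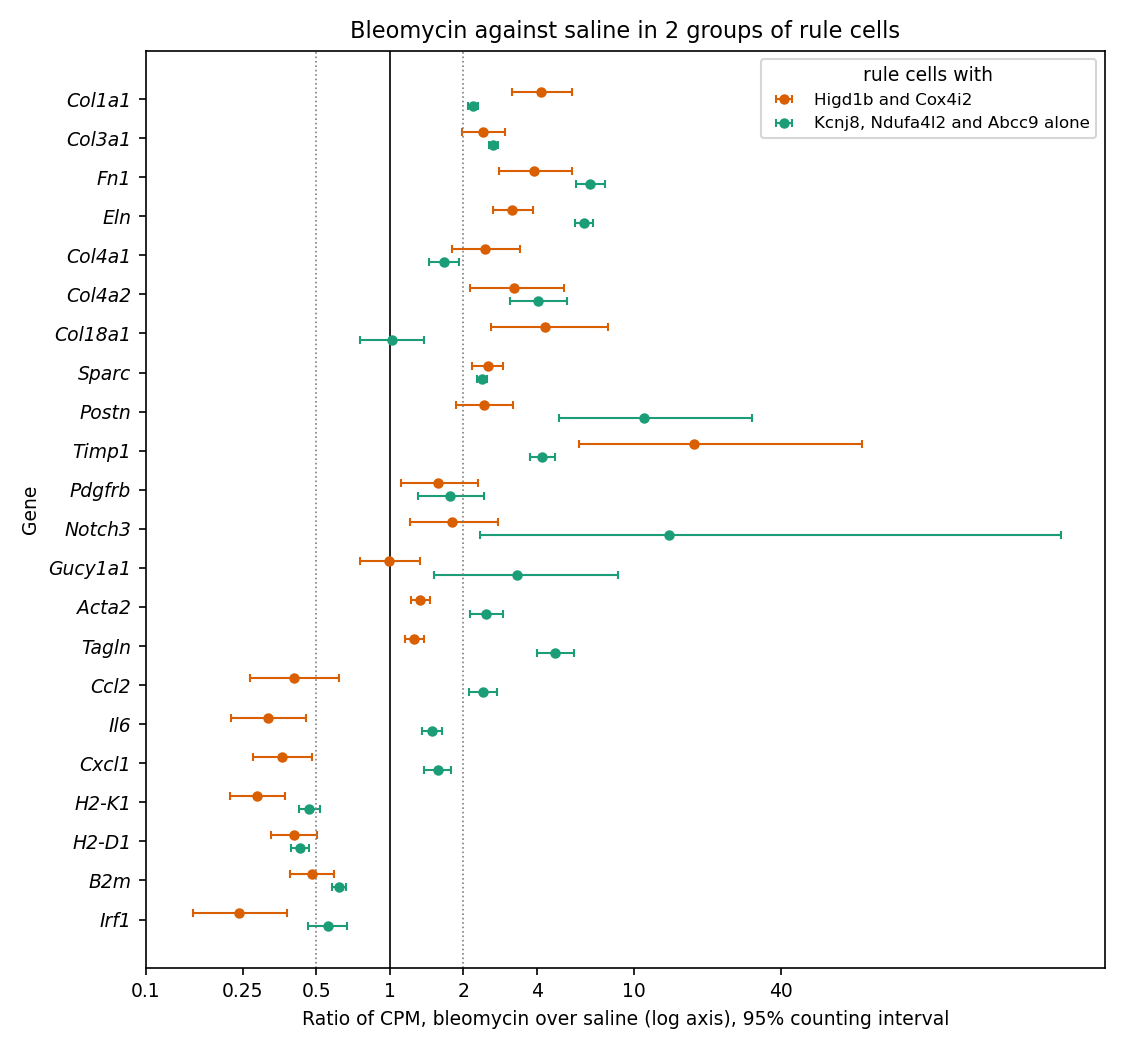
Ratio of CPM, bleomycin over saline, on a log axis for 22 genes chosen after their values were seen, in Higd1b/Cox4i2 cells (upper point of each row) and Kcnj8/Ndufa4l2/Abcc9 cells (lower point), with 95% counting intervals and dotted lines at 0.5 and 2. Col1a1 lies right of 1 in both groups, Col18a1 lies at 4.34 in Higd1b/Cox4i2 cells and 1.02 in Kcnj8/Ndufa4l2/Abcc9 cells, and Ccl2, Il6 and Cxcl1 lie left of 1 in Higd1b/Cox4i2 cells and right of 1 in Kcnj8/Ndufa4l2/Abcc9 cells.

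Of 13 genes of the TGF-beta response 6 were higher and 0 lower, at a median log2 difference of 0.68, against 0.55 in the other cells. Timp1, an inhibitor of matrix metalloproteinases, had 1728 CPM in bleomycin and 331 CPM in saline (ratio 5.22, 4.69 to 5.83). Ltbp2, which binds elastic microfibrils, was higher in both groups, with 1081 CPM in bleomycin and 442 CPM in saline in Higd1b/Cox4i2 cells (ratio 2.45, 1.79 to 3.43) and 431 CPM in bleomycin and 111 CPM in saline in Kcnj8/Ndufa4l2/Abcc9 cells (ratio 3.88, 3.06 to 4.96).

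Some inflammatory genes had ratios on opposite sides of 1 in the groups. Over all cells of the rule 5 of 18 inflammatory signal genes were higher and 0 lower (median log2 difference 0.00), and 5 of 9 inflammatory fibroblast genes were higher and 0 lower. Saa3, an acute-phase serum amyloid gene, had 404 CPM in bleomycin and 48.1 CPM in saline (ratio 8.40, 6.36 to 11.3), with 379 CPM in bleomycin and 72.2 CPM in saline in Kcnj8/Ndufa4l2/Abcc9 cells and 2 UMIs in bleomycin and 0 in saline Higd1b/Cox4i2 cells. Ccl2, the monocyte attractant, had 879 CPM in bleomycin and 366 CPM in saline in Kcnj8/Ndufa4l2/Abcc9 cells (ratio 2.41, 2.11 to 2.76), and 149 CPM in bleomycin and 368 CPM in saline in Higd1b/Cox4i2 cells (ratio 0.405, 0.268 to 0.622). Cxcl1, a neutrophil attractant, had 706 CPM in bleomycin and 449 CPM in saline in Kcnj8/Ndufa4l2/Abcc9 cells (ratio 1.57, 1.39 to 1.79), and in Higd1b/Cox4i2 cells it was lower in bleomycin, with 306 CPM in bleomycin and 842 CPM in saline (ratio 0.363, 0.276 to 0.481). Il6 had 1129.6 CPM in bleomycin and 758 CPM in saline in Kcnj8/Ndufa4l2/Abcc9 cells (ratio 1.49, 1.35 to 1.64) and 176 CPM in bleomycin and 558 CPM in saline in Higd1b/Cox4i2 cells (ratio 0.316, 0.223 to 0.452), neither called. Of the 10 inflammatory fibroblast genes listed, Ccl2, Cxcl1 and Il6 among them, 1 was called lower in Higd1b/Cox4i2 cells and 0 higher. Ccl2 and Cxcl1 were thus not both called there, and a lower call needed the gene in 10 of 13 saline cells. Of all genes compared in these cells 5.54% were higher and 1.32% lower. The difference between the groups was not tested, and the saline Higd1b/Cox4i2 cells are 13 cells, of which 4 had more fibroblast than pericyte genes. Lcn2 and Hp were also among the 12 highest genes. Lcn2 had 167 CPM in bleomycin and 17.0 CPM in saline (ratio 9.85, 6.19 to 16.7) and Hp had 97.9 CPM in bleomycin and 6.60 CPM in saline (ratio 14.8, 7.15 to 37.1) over all cells of the rule. Within the Higd1b/Cox4i2 group Lcn2 had 24 UMIs in bleomycin and 0 in saline and Hp 47 UMIs in bleomycin and 0 in saline, neither called there. Lcn2 had 2277 CPM in bleomycin and 277 CPM in saline in cells with epithelial genes, and the part of free RNA in its level was not tested.

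Several interferon and antigen presentation genes were lower in bleomycin. Of 13 compared 0 were higher and 5 lower, Irf1, Gbp2, H2-K1, H2-D1 and Iigp1, and their median log2 difference was -0.73, against -0.62 in the other cells and -0.57 in Myh11 cells. H2-K1, a class I histocompatibility chain, had 308 CPM in bleomycin and 1073 CPM in saline in Higd1b/Cox4i2 cells (ratio 0.287, 0.222 to 0.371) and 500.3 CPM in bleomycin and 1068 CPM in saline in Kcnj8/Ndufa4l2/Abcc9 cells (ratio 0.469, 0.425 to 0.517). The transcription factor Irf1 had 133 CPM in bleomycin and 298 CPM in saline over all cells of the rule (ratio 0.445, 0.388 to 0.512). Of 15 immediate early and heat shock genes, which also answer to tissue digestion, 0 were higher and 2 lower, Egr1 and Hspa1b (median log2 difference -0.63).

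Some fibroblast identity genes were lower in bleomycin, where Kcnj8/Ndufa4l2/Abcc9 cells were also a smaller share of the cells (38.2% in bleomycin, 64.5% in saline), and the part of that share in the pooled values was not tested. Of 9 adventitial genes 0 were higher and 5 lower, and of 11 alveolar genes 0 were higher and 3 lower. Clec3b, which encodes tetranectin, had 286 CPM in bleomycin and 1170.5 CPM in saline (ratio 0.244, 0.226 to 0.264), and within Kcnj8/Ndufa4l2/Abcc9 cells 608 CPM in bleomycin and 1602 CPM in saline (ratio 0.3795, 0.349 to 0.413). Serpinf1, an angiogenesis inhibitor, had 178 CPM in bleomycin and 491 CPM in saline over all cells of the rule (ratio 0.363, 0.325 to 0.406) and 386 CPM in bleomycin and 731 CPM in saline within Kcnj8/Ndufa4l2/Abcc9 cells (ratio 0.528, 0.470 to 0.593, no longer called). Pi16 was not called in either set, at 218 CPM in bleomycin and 326 CPM in saline over all cells of the rule. Inmt, an N-methyltransferase abundant in alveolar fibroblasts, had 199 CPM in bleomycin and 1342 CPM in saline (ratio 0.148, 0.136 to 0.161), and Gsn, the actin-severing gelsolin, 2391 CPM in bleomycin and 13137 CPM in saline (ratio 0.182, 0.178 to 0.187). Both were also lower in bleomycin in the Kcnj8/Ndufa4l2/Abcc9 cells, and Gsn in Higd1b/Cox4i2 cells as well (1373 CPM in bleomycin and 5312 CPM in saline). The retinoid genes Rbp4, a retinol carrier, and Lrat, which esterifies retinol, had 132 CPM in bleomycin and 898 CPM in saline (ratio 0.147, 0.133 to 0.163) and 17.9 CPM in bleomycin and 106 CPM in saline (ratio 0.168, 0.125 to 0.225). Also among the 12 lowest were Tpm3-rs7 (ratio 0.0171, 0.00611 to 0.0390), 1810010H24Rik (ratio 0.145, 0.0962 to 0.217), Igfbp6 (ratio 0.196, 0.182 to 0.211), Pcolce2 (ratio 0.225, 0.205 to 0.247), Gstm1 (ratio 0.229, 0.203 to 0.259), H2-Q4 (ratio 0.2002, 0.157 to 0.255) and Nop58 (ratio 0.231, 0.196 to 0.274). Tpm3-rs7 is a near copy of Tpm3, and reads of the copies may be split between them.

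Over all cells of the rule, the share of vessel-wall genes called between the libraries is read against 4.39% of all genes called higher and 5.29% called lower. Of 15 other pericyte genes 1 was higher, the nucleotide-sugar receptor gene P2ry14 (125 CPM in bleomycin and 49.0 CPM in saline, ratio 2.55, 1.91 to 3.45), and 1 lower, Lamc3 (median log2 difference 0.14). Of 10 smooth muscle genes 0 were higher and 0 lower. Within Higd1b/Cox4i2 cells, Pdgfrb had a ratio of 1.58, 1.11 to 2.31, Notch3 of 1.80, 1.21 to 2.78, Mcam of 1.18, 0.841 to 1.69 and Gucy1a1 of 0.997, 0.758 to 1.33, none of them called. Cspg4, the NG2 proteoglycan, was called higher there from 72 UMIs in bleomycin and 3 in saline (ratio 4.41, 1.45 to 21.9). A rule gene, Trpc6, had 55 UMIs in bleomycin and 2 in saline in the same cells (ratio 5.06, 1.33 to 42.8), which is a description since the rule used it. Within Kcnj8/Ndufa4l2/Abcc9 cells 5 of the 18 other pericyte genes were called higher, Notch3, Mcam, Gucy1a1, Gucy1b1 and P2ry14, and 1 lower, Lamc3, though at low levels there (Notch3 had 36 UMIs in bleomycin and 1 in saline, ratio 13.9, 2.34 to 565). Of all genes compared in these cells 5.03% were higher and 5.9% lower. In the same cells Acta2 (688 CPM in bleomycin and 277 CPM in saline, ratio 2.48, 2.13 to 2.90) and Tagln (997 CPM in bleomycin and 209 CPM in saline, ratio 4.76, 4.02 to 5.67) were higher in bleomycin. Both were called higher in the other cells too, Acta2 at 769 CPM in bleomycin and 241 CPM in saline and Tagln at 1486 CPM in bleomycin and 579.8 CPM in saline.

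Genes of signalling between vessel wall and endothelium are read against the same shares of all genes. In the endothelial crosstalk list 0 of 20 were called in either direction (median log2 difference 0.00). Of 8 nitric oxide and cyclic GMP genes 2 were higher, Pde1a and Npr3. Of 9 ion channel genes 1 was higher, the potassium channel gene Kcnk3 (65.2 CPM in bleomycin and 23.6 CPM in saline, ratio 2.77, 1.84 to 4.35). Of 12 vasoactive receptor genes 1 was higher, P2ry14, and 1 lower, Ptgfr. In Higd1b/Cox4i2 cells Kcnk3 was not called (ratio 1.33, 0.741 to 2.59), while Ramp1, a partner subunit of the receptor for calcitonin gene-related peptide, was higher (253 CPM in bleomycin and 105 CPM in saline, ratio 2.41, 1.27 to 5.14). Of 15 contractile genes 1 was higher, Csrp2, and of 14 hypoxia and glycolysis genes 1 was lower, Adm. None of 6 respiratory chain isoform genes was called, with a median log2 difference of 0.33.

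Lepr, the gene whose promoter drove the label, had 18.5 CPM in bleomycin and 98.0 CPM in saline over the cells of the rule (ratio 0.189, 0.140 to 0.254, from 85 UMIs in bleomycin and 104 in saline) and was lower in bleomycin. Within Kcnj8/Ndufa4l2/Abcc9 cells it had 26.8 CPM in bleomycin and 131 CPM in saline (ratio 0.204, 0.141 to 0.292), and in Higd1b/Cox4i2 cells 12 UMIs in bleomycin and 4 in saline (ratio 0.552, 0.167 to 2.35). At 2000 UMIs Lepr was found in 3.85% of bleomycin and 26.9% of saline Kcnj8/Ndufa4l2/Abcc9 cells, and in 2.58% of bleomycin and 10.9% of saline other cells. Since tdTomato stays on, a low Lepr level does not set a cell outside the labelled population. Whether fewer transcripts per cell or a different mix of cells underlies the pooled Lepr value cannot be told apart from these sums.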

How the data were processed

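The authors deposited whole-number UMI counts per gene and cell barcode, 1 matrix per library, made with Cell Ranger 6.1.2 on mm10, per the submitters' processing notes. Filters, classes and the 6 rule genes are given above. UMIs were summed per class and library and scaled to CPM, with exact Poisson intervals, conditional binomial intervals for ratios and Clopper-Pearson intervals for shares, all at 95%, and a limit of 3 counts for a share of 0. Members, gene lists and tests were chosen with earlier results of these data known. Named genes were the 12 called genes with the highest and the 12 with the lowest log2 ratio with 10 CPM added, the 15 highest and 10 lowest against other cells, the 10 highest and 10 lowest against Myh11 cells, and list members; rule genes were left out of the ranks. Genes of the Higd1b/Cox4i2 and Kcnj8/Ndufa4l2/Abcc9 cells were ranked after the values were seen. Thinning used seed 1. Doublets were not removed: Scrublet in scanpy 1.11.5 called 0 bleomycin cells and 66 saline cells, so in bleomycin it did not work, and leaving out the highest 5% of scores was tried instead. Only the call between libraries was tested on simulated data, without its minimum of 10 cells. The steps were run with Python 3.11.15, numpy 2.4.6, scipy 1.17.1, pandas 2.3.3 and matplotlib 3.10.9. GENCODE M21 held 32158 of 32285 gene identifiers. The values of 1 listed gene are not reported here. Alternatives varied the rule genes, excluded genes, filters, depth, scaling and minimum CPM.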

Additional observations from a re-analysis of the deposited data

How the results depend on the processing

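The share of cells meeting the rule, 3.40% in bleomycin and 1.45% in saline, moved with the rule itself. It was 0.680% and 0.120% with at least 4 genes, 2.28% and 1.09% without Cox4i2, 1.15% and 0.347% without Kcnj8, 1.56% and 0.275% without Ndufa4l2, 0.9999% and 0.263% without Abcc9, 2.12% and 1.08% without cells of 3 or more Myh11 UMIs, 0.275% and 0.171% at 2000 UMIs, and 0.480% and 0.156% for Higd1b with Cox4i2 only, each for bleomycin and then saline. In bleomycin it was also 3.04% without Trpc6 and 3.78% with the excluded genes unused. It was higher in bleomycin in each of these settings. The 359 genes higher and 433 lower in bleomycin became 176 and 7 with at least 4 genes, 50 and 9 at 2000 UMIs, 181 and 43 in Higd1b/Cox4i2 cells alone, and 119 and 152 with at least 50 CPM. Fewer cells or UMIs enter the first 3 of these by construction. Of the 24 genes named between the libraries, 24 kept their direction and call with Kcnj8/Ndufa4l2/Abcc9 cells alone, without Myh11-positive cells and without the highest 5% of doublet scores. The same 24 kept them with stricter filters, under both other scalings and at a minimum of 50 CPM. One scaling divided by the median ratio, whose log2 was only -0.02. Without a minimum CPM a called gene cannot lose its call, so the 24 kept there were fixed in advance. With at least 4 genes 15 lost the call, and in Higd1b/Cox4i2 cells 18. At 2000 UMIs 15 lost it, 6 had no UMI in either library, and Rbp4 (log2 0.30) and Nop58 (log2 0.33) reversed; the cause was not tested. The settings with Higd1b and Cox4i2 and with Kcnj8, Ndufa4l2 and Abcc9 alone were chosen after seeing the data. No paired analysis was possible because each treatment has 1 library and the labels give no replicate numbers. Depth limits the saline Higd1b/Cox4i2 cells most, since 13 cells with 95067 UMIs put a floor of 3 counts at 31.6 CPM.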

Other observations

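Levels of some transcription factor genes differed between the groups of cells. Tbx2 had 182 CPM in bleomycin and 158 CPM in saline in Higd1b/Cox4i2 cells and 48.6 CPM in bleomycin and 50.6 CPM in saline in Kcnj8/Ndufa4l2/Abcc9 cells, and Nr2f2 had 275 CPM in bleomycin and 221 CPM in saline in Higd1b/Cox4i2 cells and 124 CPM in bleomycin and 136 CPM in saline in Kcnj8/Ndufa4l2/Abcc9 cells. Foxs1 had 79.3 CPM in bleomycin and 63.1 CPM in saline in Higd1b/Cox4i2 cells and 30.7 CPM in bleomycin and 57.8 CPM in saline in Kcnj8/Ndufa4l2/Abcc9 cells. Foxs1 was also above the other cells (10.8 CPM in bleomycin and 10.9 CPM in saline) in each of these groups. Of 17 transcription factor genes compared between the libraries 0 were higher and 1 lower in bleomycin, Tcf21, a factor of alveolar fibroblasts (119 CPM in bleomycin and 315 CPM in saline, ratio 0.377, 0.328 to 0.433). Itga1, the collagen-binding integrin alpha 1, had 582 CPM in bleomycin and 242 CPM in saline in Higd1b/Cox4i2 cells (ratio 2.41, 1.57 to 3.85) and 144 CPM in bleomycin and 196 CPM in saline in Myh11 cells. Of 14 adhesion and junction genes 3 were higher in bleomycin over all cells of the rule, Gja4, Gja1 and Ncam1, and 0 lower.

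S100b, a calcium-binding protein gene listed with glial genes, had 47.6 CPM in bleomycin and 1.88 CPM in saline over all cells of the rule (ratio 25.2, 6.90 to 209.7, from 218 UMIs in bleomycin and 2 in saline). In bleomycin it had 85.2 CPM in cells of another combination and 13.4 CPM in Kcnj8/Ndufa4l2/Abcc9 cells, with 0 UMIs in Higd1b/Cox4i2 cells of both libraries, and S100b had 42.8 CPM in bleomycin and 5.33 CPM in saline in Myh11 cells. S100b is singled out after its values were seen.

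Il33, an alarmin made by stromal cells, had 283 CPM in bleomycin and 82.4 CPM in saline in Kcnj8/Ndufa4l2/Abcc9 cells (ratio 3.44, 2.61 to 4.604), and 9 UMIs in bleomycin and 0 in saline Higd1b/Cox4i2 cells. In Myh11 cells it had 2.73 CPM in bleomycin and 1.18 CPM in saline. Of 6 peribronchial and ductal myofibroblast genes 3 were higher in bleomycin over all cells of the rule, Aspn, Fgf18 and Lgr6, and 0 lower.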
